A study of Mus musculus with 9 samples.

Results

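The genes described here encode the proteins that fasten the dynein motors of motile cilia and sperm flagella to the microtubules. There are 8 of them among the 23074 genes of the count table. They were chosen by name, each as the row whose mouse gene ID carries the symbol: Ccdc114, Ccdc151, Ttc25, Armc4, Ccdc103, Ccdc63, Ccdc39 and Ccdc40. RNA-seq had been done on whole decapsulated testes, 1 library per mouse, from 5 wild type mice and 4 mice without Rfx2 (Rfx2-/-), all 29 to 30 days old. The comparison asks which mRNAs depend on RFX2, a transcription factor of the RFX family. Both genotypes had a mixed C57BL/6, 129/Sv and FVB/N background. In Rfx2-/- mice 1 exon that encodes much of the DNA binding domain had been removed in every tissue by a universal Cre transgene driven by the beta-actin promoter, and a neomycin cassette stayed in the line. Controls were littermates of the same age where the breeding allowed it. Since whole testis was used, fewer cells of a type and less RNA per cell cannot be told apart in any value given here.

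The axoneme of a motile cilium or flagellum is a ring of doublet microtubules along which dynein arms are set at fixed intervals. Outer dynein arms, which provide much of the force of the beat, sit on a docking complex that holds CCDC114, CCDC151, TTC25 and ARMC4, and CCDC103 is a microtubule binding protein needed to anchor them. CCDC39 and CCDC40 form a coiled-coil pair that runs along each doublet and acts as a ruler for the spacing of inner dynein arms and of the nexin-dynein regulatory complex, which links neighbouring doublets. CCDC63 is a paralogue of CCDC114 known from the sperm flagellum. In the testis the flagellum is built by haploid spermatids.

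Total counts were between 13574764 and 15193330 in 8 libraries and 28800855 in Rfx2-/- replicate 1. Values are CPM, counts relative to the library total after its correction by the TMM factor. The coefficient of biological variation was 0.14 in wild type and 0.31 in Rfx2-/- libraries. Rfx2 itself was at 549.3 ± 54.5 CPM (SD, n = 5) in controls, while the 4 knockout libraries in order held 199.2, 61.51, 151.1 and 172.7 CPM, a log2 fold change of -1.91 (edgeR adjusted p 7.81e-04, SE 0.28). Rfx2-/- replicate 2 stood apart from the other 8 libraries. Deviations by gene length were taken in log2 from the mean of the other libraries of the same genotype. Genes with under 2 kb of exons deviated in replicate 2 by a median of 0.62 and genes over 8 kb by -0.93. The other libraries had -0.38 to 0.09 and -0.09 to 0.53. Rfx2-/- replicates 1 and 3 had values of the other sign, -0.38 and -0.20 for the short genes and 0.53 and 0.38 for the long ones. Their reference includes replicate 2, so part of this difference in sign comes from that library.

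RFX proteins bind the X-box, an inverted repeat of a short site. Promoters from RefSeq (GRCm38.p6, 250 bases before to 50 after the start) were given for 5 of the 8 genes and are shown because the study marks Ccdc103, Ccdc151, Ccdc39 and Ccdc40 as bound by RFX2 in testis chromatin. It marks Armc4 and Ttc25 as well, but not Ccdc114 or Ccdc63. That chromatin came from dissociated germ cells of younger wild type mice, not from whole testes at the age used here. Each line gives 120 bases on the strand of the gene, up to the base before the start or, for Ccdc103, 10 bases past it. For Ccdc114, 30 bases are given, since in GENCODE M21 the gene begins further upstream. Capitals mark matches to a relaxed X-box, GTNNCC, 0 to 3 bases, then NGNAAC on either strand. The Ccdc40 stretch lies at chr11:119228452-119228571 (plus strand), Ccdc39 at chr3:33844311-33844430 (minus), Ccdc151 at chr9:22002635-22002754 (minus), Ccdc103 at chr11:102881114-102881233 (plus) and Ccdc114 at chr7:45924185-45924214 (plus).
Ccdc40: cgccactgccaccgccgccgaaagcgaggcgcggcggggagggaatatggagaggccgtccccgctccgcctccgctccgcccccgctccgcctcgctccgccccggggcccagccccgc
Ccdc39: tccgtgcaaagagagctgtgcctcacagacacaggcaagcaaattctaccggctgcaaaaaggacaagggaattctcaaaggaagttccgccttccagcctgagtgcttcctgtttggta
Ccdc151: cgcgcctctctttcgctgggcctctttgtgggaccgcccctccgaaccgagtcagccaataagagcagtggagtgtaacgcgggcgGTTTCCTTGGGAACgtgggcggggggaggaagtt
Ccdc103: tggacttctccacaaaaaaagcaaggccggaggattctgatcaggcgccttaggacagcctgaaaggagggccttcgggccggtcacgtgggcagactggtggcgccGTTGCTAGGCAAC
Ccdc114: ccttattggccccttGTCTCCCCAGTAACc

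The relaxed motif was found in 3 of the 5 promoters, those of Ccdc151, Ccdc103 and Ccdc114, and in 5.254% of 32851 mouse promoters. Its first base lay 34 bases before the start in Ccdc151, 15 before it in Ccdc114 and 3 before it in Ccdc103. A second match in Ccdc151 began 170 bases before the start, outside the stretch printed. The strict form, GTTNCC, 0 to 3 bases, then GGNAAC, occurred in Ccdc151 alone of the 5 and in 0.804% of all promoters. The strict form is one of the sequences that the relaxed form allows, and the match 34 bases before the start of Ccdc151 meets both. A single arm of the repeat, GTTGCC on either strand, occurred in Ccdc103 alone of the 5, 5 bases into the transcript, and in 12.514% of all promoters. It overlaps the relaxed match there. In the Ccdc40 and Ccdc39 promoters none of the 3 forms was found, which says only that these letters are not in the 300 bases searched.

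Calls required a change beyond 2-fold together with an edgeR adjusted p, over 15613 genes, no larger than 0.01. All 8 genes passed the filter on low counts. The mRNAs of the ruler protein Ccdc40 and of the docking proteins Armc4 and Ttc25 were called lower in Rfx2-/- testes, 3 of 8 genes where 3.68% of all tested genes were called lower. None of the 8 was called higher, against 0.826% of all genes. By unadjusted edgeR p under 0.05, Ccdc151 was the single gene of the 8 above wild type, at 0.0377, and DESeq2 called none higher. Genotypes did not overlap in 4 of 8, Ccdc39 being the other one, against 15.9% of all genes. The median log2 fold change was -0.55 over the 8 genes and 0.03 over all genes tested, and the single values ran from -3.87 to 0.38.

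**Figure D1:**
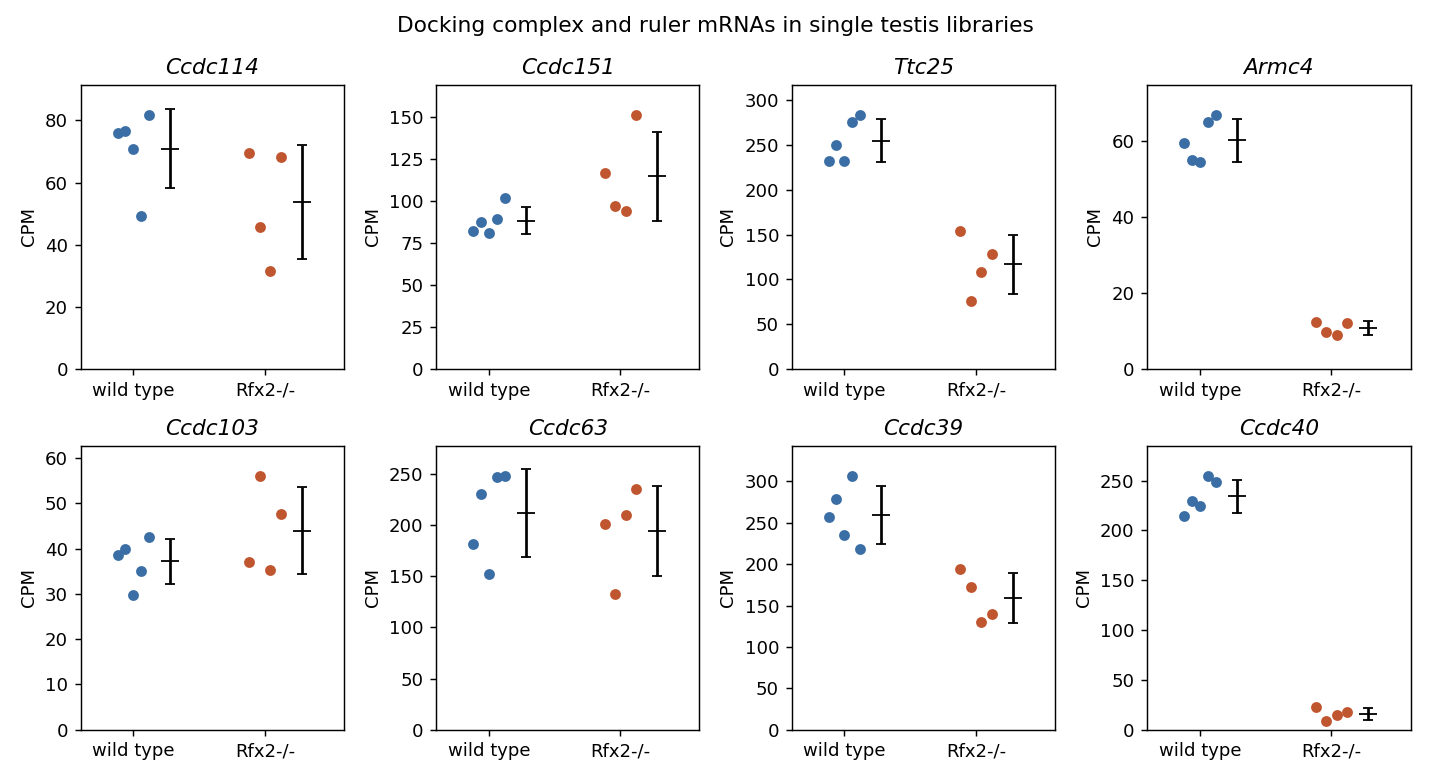
Level of each of the 8 mRNAs in single testis libraries (CPM, linear axis from 0), with wild type in blue and Rfx2-/- in orange; crossbars give the mean and SD beside the points (n = 5 and n = 4). The Rfx2-/- points lie below every wild type point for Ttc25, Armc4, Ccdc39 and Ccdc40, and the genotypes overlap for the other 4 genes.

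Ccdc40 (ENSMUSG00000039963, chr11:119228572-119265238, plus strand) encodes one partner of the ruler pair. Wild type replicates 1 to 5 had 214.4, 229.4, 224.5, 254.6 and 248.5 CPM, and Rfx2-/- replicates 1 to 4 had 22.8, 8.76, 14.45 and 17.99 CPM. Every knockout library lay far below every wild type library, and replicate 2 was the lowest. The mean fell from 234.3 ± 16.8 (SD, n = 5) to 16.0 ± 5.92 CPM (SD, n = 4), or 6.83% of wild type. The log2 fold change was -3.87 (SE 0.25, edgeR adjusted p 7.81e-07). It was called in all 17 other fits and call rules, with log2 fold changes from -4.06 to -3.66. Without Rfx2-/- replicate 2 it was -3.66. Tbc1d16, whose start lies 73 bases from that of Ccdc40 on the opposite strand, had a log2 fold change of 0.08 (edgeR adjusted p 0.871, SE 0.27).

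Ccdc39 (ENSMUSG00000027676, chr3:33812362-33844310, minus strand) encodes the other partner, CCDC39. Wild type replicates 1 to 5 had 256.8, 279.2, 235.9, 306.5 and 218.9 CPM, and the knockout libraries 194.8, 172.3, 129.8 and 139.5 CPM. The highest knockout library stayed below the lowest wild type library. The log2 fold change was -0.71 (SE 0.16, edgeR adjusted p 0.0161), with a 95% interval of -1.06 to -0.35, so that it missed both the p limit and the fold limit and is not called. It was called lower only when the limit was an adjusted p of 0.05 with no fold limit. In the other fits its log2 fold change ran from -0.79 to -0.57 and its edgeR or DESeq2 adjusted p from 7.04e-04 to 0.0683. The end of Ccdc39 overlaps Ttc14 on the opposite strand, and 34.2% of its exon bases also belong to exons of that gene. Ttc14 had 51.38 to 75.95 CPM in wild type libraries, against 87.79 to 116.2 in the knockout, without overlap, a log2 fold change of 0.61 (edgeR adjusted p 0.0205, SE 0.15) that was not called. By the study's methods, reads over exons of different genes were left out. For these 2 genes on opposite strands this holds only if counting ignored strand, which is not stated.

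The balance within the ruler pair differed between genotypes. In a library, the ratio of Ccdc40 to Ccdc39 per kb of exon does not depend on library scaling. Its log2 value was -1.40, -1.42, -1.21, -1.40 and -0.95 in the 5 wild type libraries in order, and -4.23, -5.43, -4.30 and -4.09 in the 4 knockout libraries. The ratio was lower in each knockout library than in any wild type library. The means were -1.28 ± 0.20 (SD, n = 5) and -4.51 ± 0.62 (SD, n = 4), a difference of -3.24 (two-sided exact permutation p = 0.0159, the smallest that this design allows, and 0.0397 after Benjamini-Hochberg adjustment over 5 ratios). Without Rfx2-/- replicate 2 the difference was -2.93. The separation of this ratio follows from the values of Ccdc40 and Ccdc39 given above, so its p is no separate support.

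**Figure D2:**
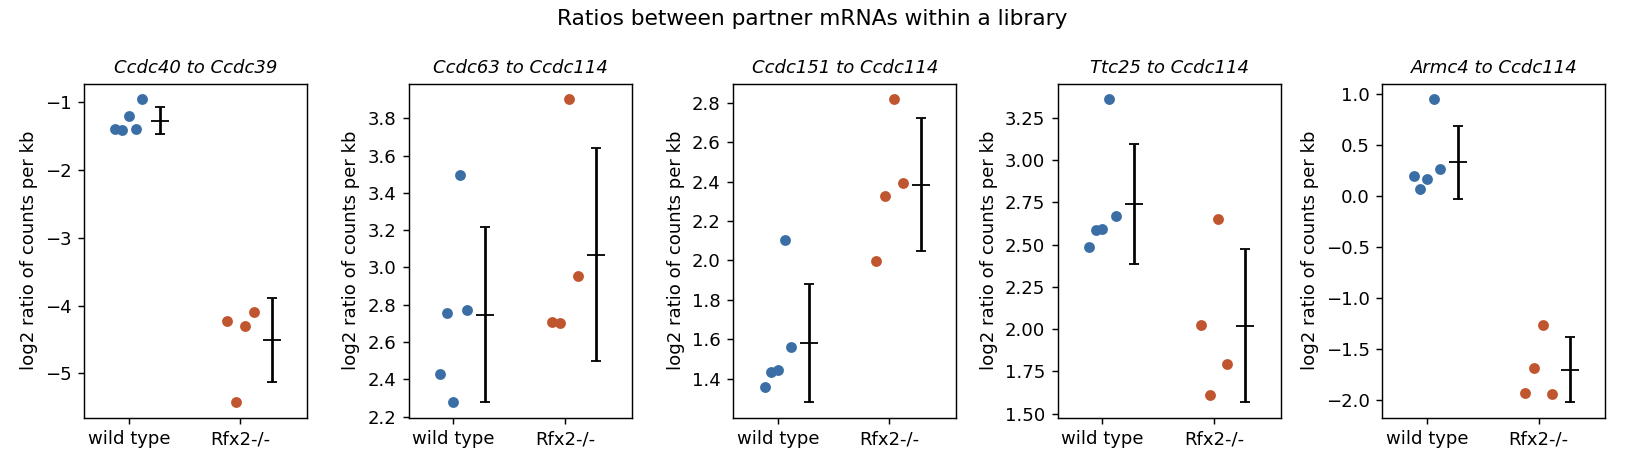
Log2 ratio of counts per kb of exon between partner mRNAs in each library, with wild type in blue and Rfx2-/- in orange; crossbars give the mean and SD (n = 5 and n = 4), and each panel has its own axis, which does not start at 0. The Ccdc40 to Ccdc39 ratio goes from -1.28 to -4.51 and the Armc4 to Ccdc114 ratio from 0.33 to -1.71, both without overlap.

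Armc4 (ENSMUSG00000061802, chr18:7088209-7297936, minus strand) encodes an armadillo repeat protein of the docking complex. Its wild type libraries had 59.33, 54.98, 54.32, 65.04 and 66.67 CPM and its knockout libraries 12.42, 9.63, 8.93 and 12.04 CPM. The knockout values lay close together and all under the wild type range. The mean fell from 60.1 ± 5.65 (SD, n = 5) to 10.75 ± 1.74 CPM (SD, n = 4), or 17.9% of wild type. The log2 fold change was -2.48 (SE 0.15, edgeR adjusted p 4.35e-07). This gene too was called in all 17 alternatives, between -2.53 and -2.35, and it shares no exon base with another counted gene.

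Ttc25 (ENSMUSG00000006784, chr11:100545607-100572568, plus strand) encodes a tetratricopeptide repeat protein that the docking complex needs for its assembly. The wild type libraries had 232.1, 250.6, 232.2, 276.1 and 283.3 CPM, and the knockout libraries 154, 75.96, 108 and 128.7 CPM. Genotypes did not overlap, but the knockout libraries were spread, with replicate 2 lowest. The mean fell from 254.9 ± 24.0 (SD, n = 5) to 116.7 ± 33.0 CPM (SD, n = 4), or 45.8% of wild type, and the log2 fold change was -1.13 (SE 0.19, 95% interval -1.55 to -0.70, edgeR adjusted p 0.00226). The interval reaches across the 2-fold limit, and the call was lost in 4 of 17 alternatives. Without Rfx2-/- replicate 2 the log2 fold change was -0.97 (edgeR adjusted p 2.1e-04), under the fold limit. Without Rfx2-/- replicate 3 it was -1.06, with an edgeR adjusted p of 0.013.

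**Figure D3:**
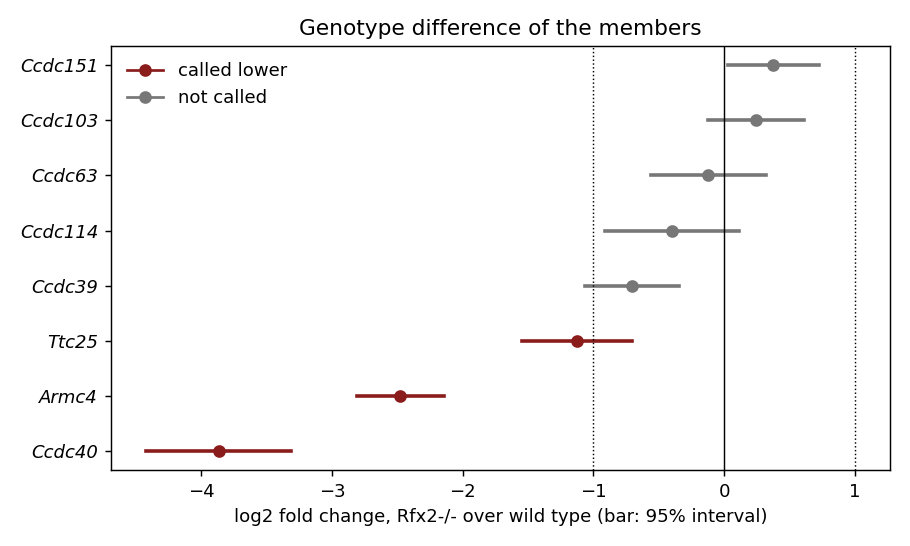
Fitted log2 fold change of Rfx2-/- over wild type for the 8 genes (points) with its 95% interval (bars), in order of size; dotted lines mark 2-fold and colour marks the genes called lower. Ccdc40 and Armc4 lie wholly beyond 2-fold, the Ttc25 interval crosses that line, and the other 5 are not called.

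The other docking complex mRNAs were not called. Ccdc114 (ENSMUSG00000040189, chr7:45924072-45948963, plus strand), which encodes a coiled-coil core component, had 76.08, 76.74, 70.81, 49.26 and 81.64 CPM in the wild type libraries, while the knockout libraries had 69.41, 45.67, 31.49 and 68.23 CPM. Rfx2-/- replicates 1 and 4 lay in the wild type range and replicates 2 and 3 below it, and wild type replicate 4 was close to the lower pair. The log2 fold change was -0.40 (SE 0.23, 95% interval -0.91 to 0.11, edgeR adjusted p 0.284). Of the 50-base stretches of its exons, 2.15% also occur in other genes.

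Ccdc151 (ENSMUSG00000039632, chr9:21989871-22002634, minus strand) encodes the coiled-coil partner of CCDC114. Its wild type libraries had 82.2, 87.43, 81.05, 89.08 and 101.5 CPM, and its knockout libraries 116.7, 96.62, 93.71 and 150.8 CPM. The knockout values lay mostly above the wild type ones, with overlap at wild type replicate 5. The means were 88.2 ± 8.15 (SD, n = 5) and 114.5 ± 26.3 CPM (SD, n = 4), and the log2 fold change was 0.38 (SE 0.16, 95% interval 0.03 to 0.73, edgeR adjusted p 0.155). Prkcsh, whose start lies 172 bases away on the opposite strand, had a log2 fold change of -0.02 (edgeR adjusted p 0.934, SE 0.12).

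Ccdc103 (ENSMUSG00000020930, chr11:102881204-102885216, plus strand) had 38.69, 39.88, 29.72, 35.03 and 42.57 CPM in wild type libraries, against 37.13, 56.03, 35.24 and 47.63 CPM in Rfx2-/- libraries. Genotypes overlapped, and the highest value was that of Rfx2-/- replicate 2. The log2 fold change was 0.24 (SE 0.17, 95% interval -0.12 to 0.61, edgeR adjusted p 0.365). Ccdc103 has the shortest exon length of the 8 genes, 1890 bases. Its log2 fold change was 0.22 after removal of the trend with gene length and 0.11 without that library. Fam187a, which overlaps its end on the same strand, had a log2 fold change of 0.69 (edgeR adjusted p 0.0742, SE 0.23), and Eftud2, which starts 219 bases away on the opposite strand, of -0.04 (SE 0.15).

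Ccdc63 (ENSMUSG00000043036, chr5:122108040-122140823, minus strand) had 181.7, 230.5, 152.7, 247.2 and 248.1 CPM in wild type libraries, against 201.7, 132.3, 209.7 and 235.4 CPM in Rfx2-/- libraries. Apart from replicate 2 the knockout values lay inside the wild type range. The log2 fold change was -0.12 (SE 0.20, 95% interval -0.56 to 0.32, edgeR adjusted p 0.721), and it turned to 0.02 without Rfx2-/- replicate 2 and also when libraries were scaled by total counts alone. Myl2, which overlaps Ccdc63 on the opposite strand, had only 4 to 34 counts in a library.

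**Figure D4:**
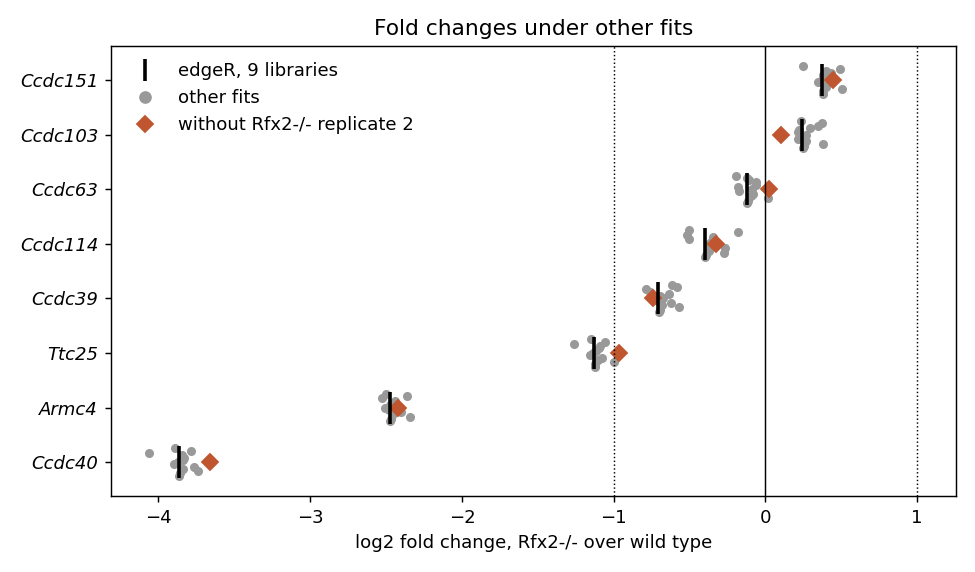
Log2 fold change of each gene with all 9 libraries (black bar), with other tools, filters or scaling or with 1 library left out (grey points) and without Rfx2-/- replicate 2 (orange diamond); dotted lines mark 2-fold. Ccdc40 and Armc4 stay beyond 2-fold in every fit, whereas Ttc25 moves to -0.97 without Rfx2-/- replicate 2.

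Within the docking complex, the other ratios were taken to Ccdc114. The log2 ratio of Armc4 to Ccdc114 was 0.07 to 0.95 in wild type and -1.95 to -1.26 in Rfx2-/- libraries, without overlap. The difference was -2.04 (two-sided exact permutation p = 0.0159, adjusted 0.0397). Here too the separation follows from the single values of Armc4 and Ccdc114 given above. For Ccdc151 to Ccdc114 the difference was 0.80 (two-sided exact permutation p = 0.0317, adjusted 0.0529), with values of 1.36 to 2.10 and of 1.997 to 2.82 that overlapped at wild type replicate 4. For Ttc25 to Ccdc114 it was -0.72 (two-sided exact permutation p = 0.0635, adjusted 0.0794) and for the paralogues Ccdc63 to Ccdc114 0.32 (two-sided exact permutation p = 0.413, equal to its adjusted value). Ccdc63 was the more abundant paralogue per kb in each of the 9 libraries, with log2 ratios from 2.28 to 3.90.

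Levels between genes were compared as CPM per kb of exon outside other genes' exons. In wild type testes the order was Ccdc39 (109.4 ± 14.6, SD, n = 5), Ccdc63 (91.3 ± 18.4), Ttc25 (89.6 ± 8.44), Ccdc40 (44.95 ± 3.22), Ccdc151 (40.1 ± 3.71), Ccdc103 (20.2 ± 2.70), Armc4 (16.9 ± 1.59) and Ccdc114 (13.6 ± 2.43). Neighbours in that order overlapped between libraries except at Ttc25 over Ccdc40 and at Ccdc151 over Ccdc103, so that 3 tiers stood apart by this measure. The lengths are those of all coding isoforms merged, which need not be the length of the transcript expressed. In CPM without division by length, wild type Ccdc40 (234.3) lay between Ccdc63 (212.1) and Ttc25 (254.9). The first place of Ccdc39 depends on the length used, since over all of its exons it was at 71.96 ± 9.61 CPM per kb. In Rfx2-/- testes Ccdc40 (3.07 ± 1.14, SD, n = 4) and Armc4 (3.02 ± 0.49) lay below the other 6, under Ccdc114 at 10.3 ± 3.52, and the highest means, those of Ccdc63 (83.9 ± 19.0) and Ccdc39 (67.1 ± 12.6), overlapped between libraries.

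The proteins that attach to or work with this apparatus were read from lists of other axoneme genes. Of a pair of docking-associated genes, Efcab1, which encodes the calcium sensor calaxin, was called lower with a log2 fold change of -3.21 (edgeR adjusted p 3.87e-05, SE 0.33), from 6.13 to 0.62 CPM. Mns1, which encodes a coiled-coil protein of the axoneme, went the other way in value, from 372.7 CPM in wild type to 613.3, with a fitted log2 fold change of 0.72 (edgeR adjusted p 0.0080, SE 0.15) that stayed under the fold limit and is not called. Of 10 outer arm genes 1 was called lower and 0 higher, with a median log2 fold change of -0.62. The called gene was Dnaic2, which encodes an intermediate chain, at -6.73 (SE 0.24, edgeR adjusted p 5.28e-09). Over all genes tested 3.68% were called lower and 0.826% higher. Relative to the wild type mean, the outer arm median was -0.05, -1.27, -0.49 and -0.44 in Rfx2-/- replicates 1 to 4. Replicate 2, the lowest, was also the library low for long genes, and replicate 1 stood near wild type.

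Among the structures placed by the ruler, 4 of the 12 inner arm genes tested were called lower and 0 higher, with a median log2 fold change of -0.70. They were the heavy chain genes Dnah10 (-4.11) and Dnah6 (-2.55), the light intermediate chain gene Dnali1 (-1.66) and the intermediate chain gene Wdr78 (-1.49). A further listed gene, Dnah7c, had no values. Relative to the wild type mean, the inner arm median was -0.05, -2.16, -0.67 and -0.67 in Rfx2-/- replicates 1 to 4. Replicate 1 thus stood near wild type, and replicate 2, the library low for long genes, far below it. The part of gene length in these medians was not tested. In the nexin-dynein regulatory complex 4 of 11 genes were called lower and 0 higher, with a median of -0.60. These were Drc1 (-6.19), Drc7 (-4.73), Ccdc65 (-2.99) and Gas8 (-1.39). The median of this list was -0.31, -0.72, -0.66 and -0.32 in Rfx2-/- replicates 1 to 4. Of all genes tested, 3.68% were called lower and 0.826% higher, and both lists were chosen with earlier results known. In both lists the other members lay between -0.96 and 0.02, so that each held a few strongly lower mRNAs beside many that were not called.

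**Figure D5:**
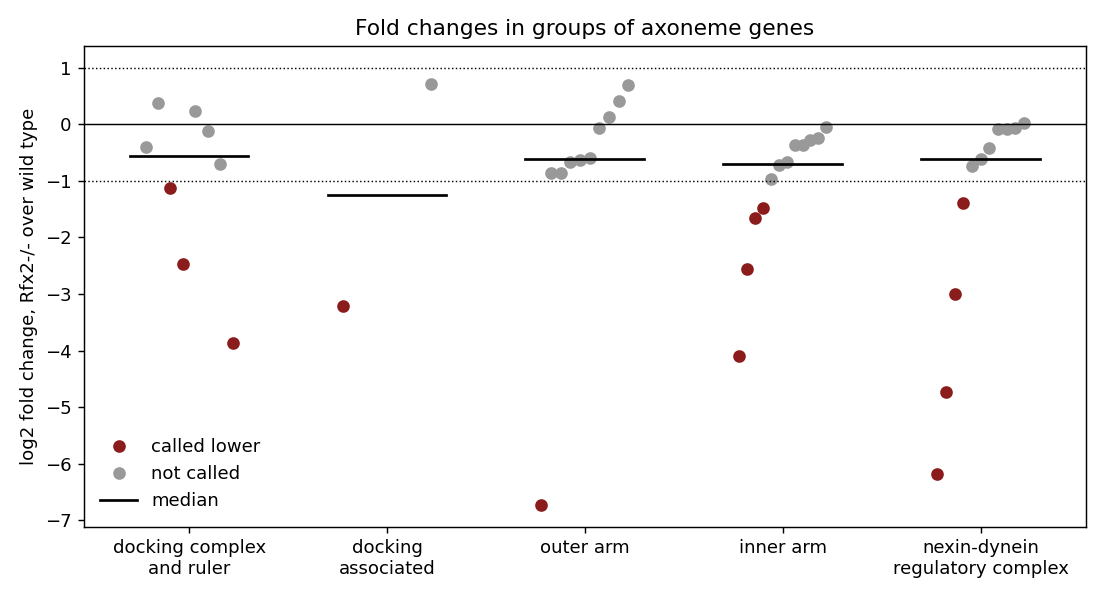
Log2 fold change of Rfx2-/- over wild type for single genes (points) of the docking complex and ruler, its associated genes, the outer arm, the inner arm and the nexin-dynein regulatory complex; bars are medians and dotted lines mark 2-fold. In each group some genes lie above the lower 2-fold line while 1 to 4 are called lower, down to -6.73 for Dnaic2.

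Markers of spermatids moved with genotype beside these values. By microscopy, the study reports that spermatids of Rfx2-/- mice stop developing before they elongate. Of 12 elongating spermatid markers 11 were below wild type, 0 were called, and the median log2 fold change was -0.66, with single values from -1.21 to 0.42. Their summed level was 9010 to 19040 CPM in wild type libraries, against 7312 to 12070 in the knockout. Of 7 round spermatid markers 6 were above wild type, with a median of 0.37 and sums of 845.5 to 1129 and 997.1 to 1660 CPM. All 8 meiotic prophase markers were above wild type, with a median of 0.65 and sums of 1012 to 1347 and 1469 to 3109 CPM, the highest in Rfx2-/- replicate 2. No marker of these lists was called in either direction. Their part in the results was not tested. Of 6 markers of multiciliated cells, which could carry the same axoneme genes, Gmnc, Mcidas and Tmem212 had 0 to 7 counts in every library. The other 3 were detected and had log2 fold changes from -0.84 to -0.47. Mean CPM in wild type and Rfx2-/- libraries was 260.8 and 146.1 for Deup1, 114 and 82.5 for Foxj1, and 8.73 and 5.49 for Cdc20b. Genotypes did not overlap for Deup1 and Cdc20b. These markers therefore do not settle whether such cells were present. Sertoli, Leydig, peritubular, macrophage and spermatogonial markers had medians between -0.01 and 0.19, with none called.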

How the data were processed

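The authors deposited raw counts per gene, whole numbers without normalization, for 23074 genes. According to the study's methods, total RNA was purified on silica columns, TruSeq libraries were read as single reads on an Illumina sequencer, and reads were mapped to GRCm38, keeping those with 1 position. The submitters' processing notes name CASAVA 1.8.2, STAR 2.4 and featureCounts 1.4.6. Reads were assigned to merged exons of coding isoforms, leaving out those over exons of different genes. The methods name a second aligner and read length, and the use of strand is not given in the sources used here, so reads of overlapping antisense genes may not be separated outside the shared exons.

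Groups came from the genotype given for each mouse. Replicates were numbered in order of deposition. Gene names and exons were taken from GENCODE M21 (GRCm38), which held 96.6% of the gene IDs, and promoters from RefSeq. Counts were tested with edgeR 4.0.16 in R 4.3.3 (quasi-likelihood, robust, TMM, filterByExpr, genotype as the single factor), with Benjamini-Hochberg adjustment over 15613 genes. The limits of 2-fold and 0.01 follow the study, applied here to the adjusted p. Ratios had 0.5 added to each count and were tested by two-sided exact permutation over libraries. Exon length outside other genes' exons was used per kb; this was chosen after the overlap of Ccdc39 with Ttc14 had been seen and does not alter any difference between genotypes. Alternatives were DESeq2 1.42.0, its size factors, total counts, all genes with at least 1 count, a test against the fold limit, unadjusted p, an adjusted p of 0.05 without fold limit, removal of a length trend, and omission of each library. The genes, lists and tests were chosen with earlier results of these data known. Named were the 8 genes, Rfx2, at most 4 called genes of each axoneme list, the largest first, and overlapping genes or genes starting within 1000 bases on the opposite strand. Mns1, Deup1, Foxj1 and Cdc20b were named after their values were seen.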

Additional observations from a re-analysis of the deposited data

Results flagged for a closer look

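In 26 groups of 4 or 5 libraries examined for a value far from the rest, 4 held one, where chance gives about 1.3. The log2 ratio of Ccdc40 to Ccdc39 was -5.43 in Rfx2-/- replicate 2, and -4.30 to -4.09 in the other knockout libraries. That library is also the one in which genes over 8 kb were low, and its Rfx2 level was the lowest at 61.51 CPM. Both genes of the pair have exons of 2 to 8 kb, a class whose median deviation there from the other knockout libraries was -0.15. The part of these values in the low ratio was not tested.

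The other 3 were ratios in wild type replicate 4. Ccdc151 to Ccdc114 was 2.10 there and 1.36 to 1.56 in the other wild type libraries. Ttc25 to Ccdc114 was 3.36, against 2.49 to 2.67, and Armc4 to Ccdc114 was 0.95, against 0.07 to 0.26. These ratios share Ccdc114, which was lowest in that library, at 49.26 CPM, against 70.81 to 81.64 in the other wild type mice, so they are 1 observation rather than 3.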

How the results depend on the processing

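The log2 fold changes of Ccdc40 and Armc4 passed the limits in all 17 alternatives. Of these, 3 changed only the rule for a call and kept the fitted fold changes. Among the 8 genes, Ttc25, Ccdc39 and Ccdc63 were those that changed side or direction. Ttc25 lost its call, leaving 2 of 8 genes, with total counts (-0.996), in the test against the fold limit, and without Rfx2-/- replicate 2 or 3, and Ccdc39 gained one when an adjusted p of 0.05 was the only limit, making 4 of 8. Ccdc63 turned positive with total counts (0.016), and ran from -0.19 to 0.0246 as single libraries were left out. Scaling by total counts moved the median of all genes from 0.03 to 0.16, so that relative to the median of all genes Ccdc63 stayed below 0. Over all genes, edgeR called 575 lower and 129 higher; DESeq2 called 211 higher, the test against the fold limit 272 lower and 29 higher, an unadjusted p 262 higher, and the adjusted p of 0.05 alone 1142 lower and 544 higher. With single libraries left out, the Ccdc151 to Ccdc114 difference ran from 0.66 to 0.93 and lost its unadjusted exact p under 0.05 in 7 of 9 cases, and the Ttc25 to Ccdc114 difference ran from -0.93 to -0.56 and passed only without Rfx2-/- replicate 3 (exact permutation p = 0.0357). Those tests had 70 or 56 arrangements of the libraries, fewer than with all 9. No paired analysis was possible because the labels do not say which mice were littermates. Depth was not limiting for the 8 genes, which had at least 131 counts in every library, while 4 knockout libraries of wide spread limit what can be said of changes under 2-fold.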

Other observations

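The 4 knockout libraries held different amounts of remaining Rfx2 reads, 36.3%, 11.2%, 27.5% and 31.4% of the wild type mean in replicates 1 to 4. For Ccdc40 the same libraries were at 9.74%, 3.74%, 6.17% and 7.68% of the wild type mean, and for Ttc25 at 60.4%, 29.8%, 42.4% and 50.5%, so both stood in the order of the Rfx2 reads. The other 6 genes did not, among them Armc4, at 20.7%, 16.0%, 14.9% and 20.04%, and Ccdc39, at 75.1%, 66.4%, 50.04% and 53.8%, so the order was met in 2 of 8 genes. This order was noticed after the values were seen, rests on 4 libraries, and no test was made. How many of all genes tested stood in the same order was not determined, so the count of 2 of 8 has no background to be read against. The study reports no reads over the removed exon and no detectable RFX2 protein in knockout testes. The remaining Rfx2 reads are therefore not a measure of RFX2 protein. The library with the fewest Rfx2 reads, replicate 2, was low for long genes relative to the other knockout libraries. Replicates 1 and 3 were high for them, but against a reference that includes replicate 2.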
